A study of Mus musculus with 12 samples.

Results

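In testis of 18-day-old mice, 8849 of 65355 deposited N6-methyladenosine (m6A) peaks lay in noncoding exons of genes listed by clone or prediction name. The members were taken by annotation and name alone: the peak is annotated to an exon of a noncoding RNA, and the gene is called Gm followed by digits or has a name ending in Rik. They made up 4757 of the 33078 peaks from wild-type (WT) males, or 14.4%, in 3093 genes. They made up 4092 of the 32277 peaks from males without Alkbh5 (Alkbh5-/-, called KO), or 12.7%, in 2630 genes. Together they covered 3538 genes, of which 2185 had a member peak in both lists. They were 86.6% of all noncoding-exon peaks of the WT list and 86.1% of those of the KO list, so the noncoding m6A peaks of this tissue were mostly clone-named.

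The study sequenced m6A-immunoprecipitated (IP) and input polyadenylated RNA of whole P18 testis from WT and Alkbh5-/- males, with 3 IP and 3 input libraries per genotype. The 2 lists used here hold 1 row per peak and genotype, with the authors' fold enrichment (IP over input) and false discovery rate (FDR), and no value per library. No difference between the genotypes could therefore be set against a replicate error, and depth per sample is unknown. The strain, the kind of Alkbh5 allele and the number of animals behind each library were not given in the sources used here. As a check of the labels, the WT list held 3 Alkbh5 peaks and the KO list 0. Of 7 germ cell marker genes, WT peaks of any annotation covered 6, all but Ddx4, and KO peaks 5, all but Ddx4 and Piwil1. Of 3 Sertoli cell markers, WT had all 3 and KO had 2, without Amh. Of 2 Leydig cell markers, WT had 1, without Star, and KO had 2.

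m6A is written on RNA by a methyltransferase complex, mostly within short motifs around GGAC, and ALKBH5 is an enzyme that removes it. Loss of ALKBH5 in mice is known for smaller testes, spermatocyte death and impaired male fertility. Names beginning with Gm are predicted genes that no study had named, many of them long noncoding RNAs (lncRNAs) or pseudogenes. Names ending in Rik come from cDNA clones of the RIKEN collection, and their first 4 characters give the library the clone came from. Names that begin as 1700051A21Rik, 4921525O09Rik, 4930581F22Rik, 4931406G06Rik, 4932431P20Rik or 4933435G04Rik do stand for adult testis libraries, and their genes are called testis-library RIKEN genes here. The testis is known for transcribing very many lncRNAs, most of them from spermatocytes and spermatids. At P18 the first wave of germ cells has reached late meiosis, and the adult mix of spermatids is not yet there.

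Gm genes had 3305 of the member peaks in WT and 2860 in KO. Testis-library RIKEN genes had 636 in WT and 443 in KO, and RIKEN genes of other libraries had 816 in WT and 789 in KO. RefSeq held 2108 of the 3538 member genes, with these names as a symbol or as an unambiguous synonym. Of the WT member peaks, 2022 were in genes that RefSeq classes as lncRNA, 677 in pseudogenes, 99 in transcribed pseudogenes and 126 in protein-coding genes, while 1783 lay in genes it does not match. Most genes had a single member peak, 2054 genes or 66.4% in WT and 1767 genes or 67.2% in KO. Only 142 genes in WT and 130 in KO had 4 or more.

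A few stretches of sequence show what such peaks look like, among those that RefSeq's promoter windows cover (build GRCm38.p6). A window runs from 250 bases before to 50 bases after the start of a gene, here the neighbour that starts on the other strand, and each stretch is on the strand of the peak, 5′ to 3′. Gm19412 has the lowest FDRs among member peaks with at least 60% of their bases in a window, though not among all members. 1700051A21Rik is a testis-library gene with a peak in WT alone, 4930581F22Rik has the lowest KO fold relative to WT among shared pairs with low FDRs, and 2510046G10Rik is a peak that can be read whole. The stretches were chosen with these values known. Capitals mark the m6A motif, GGAC followed by any base but G.
Gm19412, chr17:33919279-33919527, minus strand: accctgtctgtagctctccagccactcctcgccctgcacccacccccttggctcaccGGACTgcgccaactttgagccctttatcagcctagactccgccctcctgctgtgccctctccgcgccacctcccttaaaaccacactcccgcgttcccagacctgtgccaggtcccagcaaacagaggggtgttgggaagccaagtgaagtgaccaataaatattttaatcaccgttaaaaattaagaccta
1700051A21Rik, chr11:72266555-72266781, plus strand: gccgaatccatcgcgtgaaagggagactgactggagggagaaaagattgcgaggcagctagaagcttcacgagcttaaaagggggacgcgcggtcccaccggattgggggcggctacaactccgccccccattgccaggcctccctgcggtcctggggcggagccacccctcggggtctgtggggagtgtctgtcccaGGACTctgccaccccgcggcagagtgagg
4930581F22Rik, chr9:35116878-35117114, plus strand: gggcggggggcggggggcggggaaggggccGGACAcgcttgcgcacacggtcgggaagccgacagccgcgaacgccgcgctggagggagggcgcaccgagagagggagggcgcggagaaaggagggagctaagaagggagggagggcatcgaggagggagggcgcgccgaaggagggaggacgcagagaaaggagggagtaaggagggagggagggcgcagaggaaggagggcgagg
2510046G10Rik, chr7:126649223-126649339, minus strand: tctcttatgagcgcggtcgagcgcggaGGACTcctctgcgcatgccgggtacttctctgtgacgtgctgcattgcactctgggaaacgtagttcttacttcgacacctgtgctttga

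The Gm19412 stretch lies next to Tapbp, the gene of tapasin, which loads peptides on MHC class I molecules, and the annotated starts of both genes are 1007 bases apart. The Gm19412 peak had a fold of 13.4 in WT and 11.9 in KO, with log10 FDRs of -228 and -120. The 1700051A21Rik stretch lies in the start window of Slc13a5, a citrate transporter gene, with starts 183 bases apart. Its peak had a fold of 3.21 and a log10 FDR of -37.0 in WT, and no KO peak overlapped it. The 4930581F22Rik stretch lies in the window of St3gal4, a sialyltransferase gene, 136 bases from start to start. It is the part of the KO peak inside that window. The 2510046G10Rik stretch, beside Sgf29, a gene of the SAGA histone acetylation complex, is the whole KO peak with a fold of 5.11. The WT peak of 2510046G10Rik is shorter, 88 bases against 117, and has a fold of 8.70. It begins inside the motif, at its A, so it holds only the end of the motif. Each of the stretches printed has 1 motif, a description of their letters that does not place the methylated base.

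Of the 8569 member peaks outside chromosome 18, 1123 met a window of RefSeq. In the 232 windows that lay inside a member peak, 165 (71.1%; 95% interval 65.0 to 76.6) held at least 1 such motif on the strand of the peak. The opposite strand of the same windows held it in 133 (57.3%; 50.9 to 63.5). In the 900 windows inside peaks of other kinds the shares were 64.8% and 62.6%, and over all 32817 windows of the same length they were 60.2% and 60.4%. Among the 62 windows in member peaks spanning up to 1000 bases, where less intron is included, the shares were 66.1% (53.7 to 76.7) and 62.9% (50.5 to 73.8), with intervals that overlap. The motif is short, so most windows of 300 bases hold it in any case.

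Member peaks were weaker evidence than the peaks of the whole lists, by FDR, though not lower in median fold. In WT their fold had a median of 6.94 (quartiles 4.17 and 10.2), against 6.02 over the whole list, and the range ran from 1.27 to 406. In KO the median was 7.22 (quartiles 4.51 and 10.7), against 6.32 over the list, with a range from 1.36 to 228. Members whose FDR exceeded 0.05 were 24.1% in WT and 27.3% in KO, against 14.7% and 15.1% of all peaks. An FDR at or below 1e-05 was reached by 30.9% of WT and 27.9% of KO members, against 51.3% and 52.2%. Noncoding-exon peaks of other named genes were closer to the members. Their FDR exceeded 0.05 in 24.2% in WT and 23.4% in KO, and was at or below 1e-05 in 34.6% and 33.4%. In WT the members spanned 337 bases at the median, beside 360 for the list, and in KO 350.5, beside 389. Folds from 10 to 100 mostly took evenly spaced values: 80.9% of the WT members' were whole multiples of 0.9258 and 80.3% of the KO members' of 0.9022, to the listed decimal, against 59.0% and 55.0% in the lists. Small differences between such folds are therefore differences of a few steps.

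Peaks in clone-named noncoding exons were missing from the KO list more often than from the WT list. Of the 4757 WT members, 1725 (36.3%; 95% interval 34.9 to 37.6, for counting error only) had no partner in the KO list, that is, no peak of any annotation that shared a base on the same strand. Over all WT peaks that share was 21.6%. Of the 4092 KO members, 940 (23.0%; 21.7 to 24.3) had no partner in WT, where all KO peaks stood at 19.3%. The difference between the genotypes was 13.3 percentage points (11.4 to 15.2) for the members and 0.312 points (-0.334 to 0.959) for all other peaks of the lists. Noncoding-exon peaks of genes with other names stood at 30.6% in WT, where members exceeded them by 5.65 points (1.97 to 9.16), and at 23.4% in KO, where members stood -0.478 points from them (-4.08 to 2.86). When both peaks had to overlap by 50% of their length, the members' difference was 6.71 points.

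The names parted further. Of the testis-library RIKEN peaks of the WT list, 48.9% had no KO partner, against 21.0% of those of the KO list without a WT partner, a difference of 27.9 points (22.3 to 33.2). For Gm names the shares were 36.1% and 23.7%. For RIKEN genes of other libraries they were 27.0% and 21.4%, a difference of 5.54 points (1.35 to 9.70). Within the WT list, testis-library peaks exceeded other RIKEN peaks by 21.9 points (17.0 to 26.8) and Gm peaks by 12.8 points (8.57 to 17.0). Within the KO list, they stood -0.426 points (-5.06 to 4.44) from other RIKEN peaks. The gap was smaller but present outside noncoding exons: among peaks of testis-library genes with other annotations, such as coding exons, 30.7% in WT and 15.3% in KO had no partner, 15.4 points apart (6.89 to 23.4). Restricted to genes that RefSeq calls lncRNA, WT testis-library peaks still exceeded the other clone names by 13.8 points (8.49 to 19.1).

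Most testis libraries showed it one by one. In WT the share without a partner was 53.5% of 275 peaks for names that begin as 4930581F22Rik does, 49.2% of 187 for those like 1700051A21Rik, 45.5% of 112 for those like 4933435G04Rik and 45.5% of 22 for those like 4921525O09Rik. In KO the same libraries stood, in that order, at 23.2%, 19.9%, 17.3% and 27.8%. Names like 4932431P20Rik had 32.1% of 28 in WT and 18.5% of 27 in KO. Names like 4931406G06Rik, with 12 and 10 peaks, had 16.7% and 20%, so they did not share the direction, though the intervals are wide (4.70 to 44.8 in WT).

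**Figure D1:**
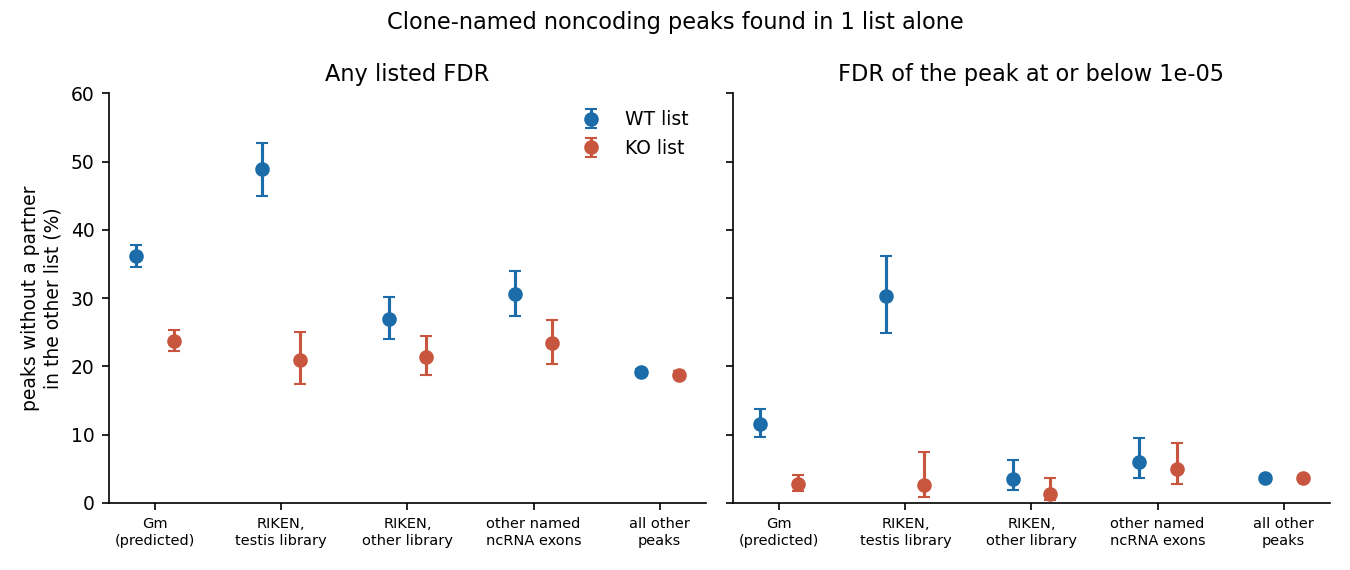
Share of peaks without a partner in the other list (y axis, percent) for each kind of name (x axis), in the WT list (blue) and the KO list (red), at any FDR (left) and for peaks with an FDR at or below 1e-05 (right). Points are shares and bars are Wilson 95% intervals; at any FDR the testis-library RIKEN peaks stand at 48.9% in WT and 21.0% in KO, while all other peaks stand at 19.1% and 18.8%.

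The difference was as clear among the best-supported peaks. At an FDR at or below 1e-05, 193 of 1469 WT members (13.1%; 11.5 to 15.0) had no partner of any FDR in KO, against 4.50% of all WT peaks under that limit. In KO it was 27 of 1140 (2.37%), against 3.57%. For testis-library RIKEN genes it was 75 of 248 in WT (30.2%) and 3 of 114 in KO (2.63%), for Gm genes 108 of 936 (11.5%) and 21 of 783 (2.68%), and for other RIKEN genes 10 of 285 (3.51%) and 3 of 243 (1.23%). Among the WT peaks with an FDR at or below 1e-20, 20.8% of testis-library RIKEN peaks (14 to 29.7) lacked a partner, against 1.15% of all other peaks. At each of 4 steps of FDR, WT members exceeded all other peaks, by 7.31, 7.24, 7.95 and 8.22 points from the highest FDR to the lowest. KO members stood below all other peaks at the first 3 steps, by -5.81, -11.0 and -5.20 points, and at 0.594 points (-0.298 to 2.58) in the last.

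**Figure D2:**
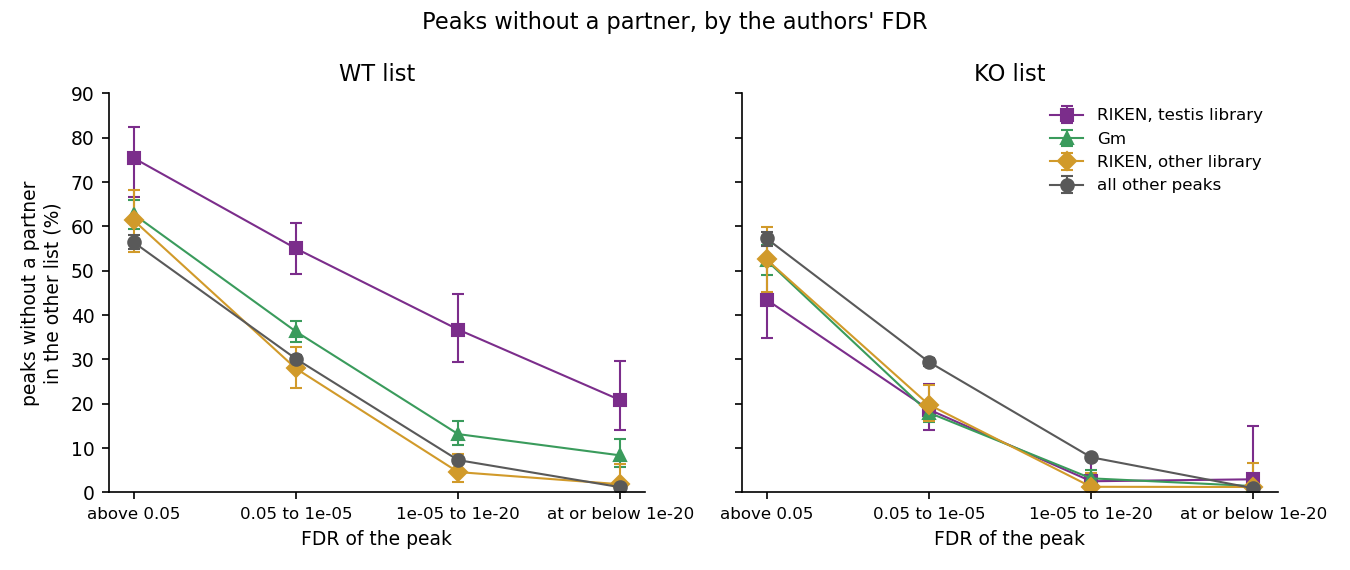
Share of peaks without a partner (y axis, percent) against the FDR step of the peak (x axis, from weak to strong), in the WT list (left) and the KO list (right), with Wilson 95% bars. The testis-library RIKEN line lies above the others in WT, from 75.5% to 20.8%, and below that of all other peaks at the first step in KO, at 43.5% against 57.3%.

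Seen from the other side, members were 24.2% of the 7139 WT-only peaks of all annotations and 15.1% of the 6240 KO-only peaks. The KO minus WT difference was -9.10 points (-10.4 to -7.76), where members were 14.4% of all WT peaks and 12.7% of all KO peaks. At an FDR at or below 1e-05 they were 25.3% of the 763 WT-only peaks and 4.49% of the 601 KO-only peaks, a difference of -20.8 points. Testis-library RIKEN peaks alone were 9.83% of those WT-only peaks and 0.499% of the KO-only ones. Under that limit, members were 1469 of all 16973 WT peaks and 1140 of all 16833 KO peaks. Testis-library RIKEN peaks were 248 of those WT peaks and 114 of those KO peaks. With 50% overlap of both peaks asked for, the difference at any FDR was -3.74 points.

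The count by gene went the same way. Of the 3093 WT genes with a member peak, 908 (29.4%) had no peak of any kind in the KO list, where 12.7% of all genes with a WT peak had none. Of the 2630 KO genes, 445 (16.9%) had none in WT, against 9.15% of all genes. Genes of other names with a noncoding-exon peak stood close to the members, at 114 of 413 (27.6%) in WT and 55 of 354 (15.5%) in KO. Among testis-library RIKEN genes it was 166 of 394 (42.1%) against 27 of 255 (10.6%), a difference of 31.5 points (25.1 to 37.4). At any FDR, among RIKEN genes of other libraries it was 61 of 447 (13.6%) and 58 of 444 (13.1%), 0.583 points apart (-3.91 to 5.07). Both lists were then held to an FDR at or below 1e-05. Of the testis-library genes, 112 of 195 (57.4%) were seen in WT alone and 10 of 93 (10.8%) in KO alone. The member genes in 1 list alone numbered 398 of 1184 (33.6%) in WT and 134 of 920 (14.6%) in KO. Over all genes with a peak under that limit the shares were 10.6% in WT and 7.89% in KO. Genes of other names with a noncoding-exon peak stood at 26.1% and 13.6%. RIKEN genes of other libraries then differed too, with 51 of 219 (23.3%) in WT alone and 18 of 186 (9.68%) in KO alone, 13.6 points apart (6.39 to 20.6). Many of these genes had a weaker peak in the other list: 53 of the 112 testis-library genes and 133 of the 398 had no KO peak of any FDR, and 1 of the 10 and 12 of the 134 had no WT peak. A peak needs enough RNA to be called, RNA levels were not measured from these lists, and in whole testis fewer germ cells of a stage, less of an RNA per cell and less methylation of it cannot be told apart here.

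The 193 WT-only members under the FDR limit lay in 168 genes. Gm5641, a pseudogene on chromosome 3 (54481438 to 54482449, plus strand), had the highest fold, 406, with a log10 FDR of -173. Gm49077 on chromosome 15 had a fold of 67.6, and its peak shared bases with a peak on the opposite strand. 1700030C14Rik, a lncRNA on chromosome 2, had a fold of 47.2, Gm20045, a lncRNA on chromosome 1, 36.1, and 4930435N07Rik on chromosome 8, 35.2. Of these genes Gm20045 alone had another peak in the KO list. The sources used here give no role for any of these genes.

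The testis-library RIKEN genes held 75 of these peaks in 68 genes, and Gm genes 108 in 90. Of the 75 testis-library peaks, 57 were in genes with no KO peak at all. Their folds ran from 1.73 to 47.2 with a median of 5.55, close to the Gm median of 5.58, and 10 shared bases with an opposite-strand peak. Several, named here after their values were seen, had very low FDRs: 4930449C09Rik on chromosome 15 had a fold of 12.7 and a log10 FDR of -242, 1700030C12Rik on chromosome 11 had 9.91 and -216, and 4930589P08Rik on chromosome 4 had 23.2 and -179. Each of these genes was without any KO peak. 4921525O09Rik, with a fold of 9.23 in a peak whose FDR ran off the scale, and 1700001J11Rik, a transcribed pseudogene with a fold of 5.91 and a log10 FDR of -157, did have another peak in KO.

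A stretch of chromosome 7, from 73100662 to 73838838, held 6 of these WT-only peaks, in Gm6567, 4933435G04Rik and, with 4 of them, the lncRNA Gm21269. The 4 peaks of Gm21269 had folds from 1.51 to 6.19, and the gene kept another peak in the KO list. The stretch was picked out after its values were seen.

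The 27 KO-only members under the limit were mostly Gm peaks, 21 of the 27. RefSeq calls the gene a pseudogene for 10 of the 27 and a transcribed pseudogene for 2, where the 193 WT-only peaks had 18 and 6. Within the KO list under that limit, 7.52% of the peaks in pseudogenes had no partner, against 1.69% of those in lncRNAs (-5.82 points for lncRNAs minus pseudogenes, -11.7 to -2.08). At any FDR the difference was -1.58 points (-5.62 to 2.23), an interval that includes 0. Gm11847, a pseudogene on chromosome 4 (12233598 to 12233951, plus strand), had a fold of 191 and a log10 FDR of -55.8. Gm2606, a pseudogene on chromosome 15, had 69.5, Gm3883, a transcribed pseudogene on chromosome 4, 35.2, Gm45351, a lncRNA on chromosome 7, 34.3, and Gm16411, a pseudogene on chromosome X, 28.9. Gm3883 stood with Gm13303 and Gm3892 in 1 stretch of chromosome 4, from 42025488 to 42459685, a stretch picked out after its values were seen. The 3 testis-library RIKEN peaks were those of 1700120B22Rik, 4930451G09Rik and 4921514A10Rik, with folds from 2.13 to 3.15. How reads that fit several copies of a gene were counted was not given in the sources used here, so the values of pseudogenes are uncertain.

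**Figure D3:**
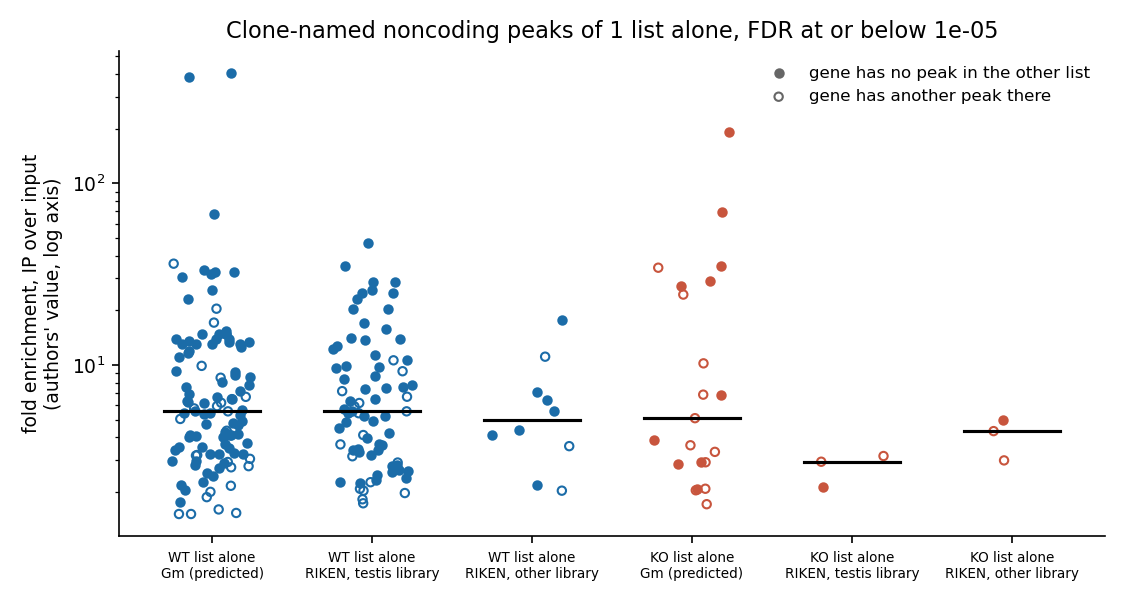
Authors' fold enrichment (y axis, log scale) of each member peak with an FDR at or below 1e-05 and no partner in the other list, by list and kind of name (x axis). Filled points are peaks of genes with no peak in the other list, open points of genes with another peak there, and black lines are medians; the WT list holds 75 testis-library RIKEN peaks and the KO list 3.

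Where a member peak was present in both lists, the median fold was 7.41 in WT and 8.12 in KO. The paired ratio of the folds had a median close to that of all shared pairs. Over 3032 shared member pairs the median log2 ratio of the KO fold to the WT fold was -0.018 (95% interval -0.037 to 0.040), beside 0.011 over all 25939 shared pairs. In 482 pairs (15.9%) the KO fold was at least 2 times higher and in 329 (10.9%) at least 2 times lower. Over all shared pairs these shares were 10.9% and 7.71%. Pairs in noncoding exons of other named genes had 18.6% and 10.4%, so more rises than falls were not particular to the members. Testis-library RIKEN genes again stood apart, with a median of 0.32 (0.20 to 0.42) over 325 pairs, 63.1% of them higher in KO, where Gm pairs had -0.036 and other RIKEN pairs -0.036. With both FDRs at or below 1e-05 the testis-library median was 0.09 (-0.11 to 0.30) over 97 pairs, an interval that includes 0. The authors' folds were made against separate inputs, so their ratio is a description.

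**Figure D4:**
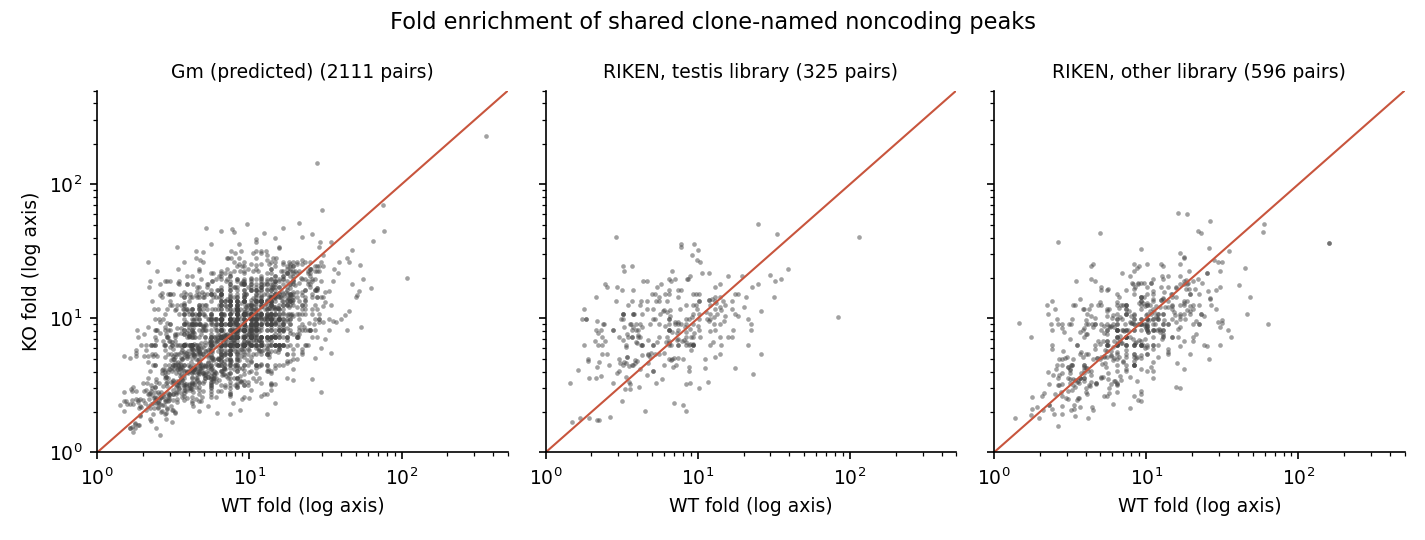
KO fold enrichment (y axis, log scale) against WT fold enrichment (x axis, log scale) of the shared member pairs of Gm genes, testis-library RIKEN genes and other RIKEN genes, with the line of equal folds in red. The 325 testis-library pairs lie more often above the line (63.1%) than the Gm pairs (47.6%).

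The highest WT fold of a shared peak was that of Gm26621 on chromosome 15 (68334715 to 68335938, minus strand), 357 in WT and 228 in KO. 5031425E22Rik, a lncRNA on chromosome 5, had 159 in WT and 36.5 in KO. 4932431P20Rik on chromosome 7 had 115 and 40.6, Gm2415 on chromosome 9 had 108 and 20, and 4930581F22Rik, a lncRNA on chromosome 9 whose sequence is printed above, had 83.5 and 10.2. All 5 were lower in KO, but they were chosen for a high WT fold, which favours that direction.

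The pairs with the largest fall in KO, both FDRs at or below 1e-05, were 4930581F22Rik with a log2 ratio of -3.03, Gm47469 with -2.88 (25.9 in WT and 3.53 in KO), the lncRNA 1110006O24Rik with -2.82 (63.6 and 9.02), Gm49437 with -2.65 (53.7 and 8.57) and Gm2415 with -2.43. The largest rises were those of 4932431P20Rik with 3.8 (2.91 in WT and 40.6 in KO), the transcribed pseudogene Gm20257 with 3.17 (5.21 and 46.9), the lncRNA 1700001G11Rik with 2.79 (3.26 and 22.6), Gm50240 with 2.66 (4.93 and 31.1) and Gm43935 with 2.57 (7.72 and 46.0). 4932431P20Rik is also among the highest WT folds above, because 1 long KO peak, of 1978 bases, overlaps both the WT peak with a fold of 115 and that with 2.91. The KO fold, 40.6, is below the former and above the latter.

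Some genes carried many peaks. Gm8995 on chromosome 7 had 15 peaks in WT and 16 in KO, and all 31 had a partner, with folds from 4.94 to 25.9 in WT and from 3.16 to 32.5 in KO. 4932431P20Rik had 9 and 14, of which 1 was in WT alone and 2 in KO alone. Gm49774 on chromosome 17 had 9 and 9, Gm26672 on chromosome 18 had 10 and 7, and Gm37233 on chromosome 1 had 5 and 9. Of the 10 WT peaks of Gm26672, 4 had no KO partner.

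Along the gene, member peaks favoured both ends, less one-sidedly than the whole lists and much as noncoding-exon peaks of other named genes did. Member genes had a median span of 3400 bases, and 18.5% of the WT member peaks and 17.5% of the KO ones covered at least 50% of their gene, against 5.47% and 4.95% of all peaks. Among the WT members that covered less, 29.3% had their centre in the last 10% of the gene span and 14.6% in the first 10%. For the whole WT list these shares were 43.4% and 12.8%, and for WT noncoding-exon peaks of other named genes 28.9% and 15.1%. In KO the last 10% held 27.3% of members and 42.4% of the list. Testis-library RIKEN peaks had 35.4% in the last 10% in WT (31.5 to 39.5) and 30.3% in KO (25.9 to 35.1). A start within 100 bases of the gene's start was seen in 22.8% of WT and 23.0% of KO members, against 10.9% and 10.4% of all peaks, and an end within 100 bases of the gene's end in 31.8% and 29.3%, against 20.3% and 18.5%. In WT, noncoding-exon peaks of other named genes had such a start in 19.6% and such an end in 28.2%. Of the same peaks, 13.5% covered at least 50% of their gene.

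**Figure D5:**
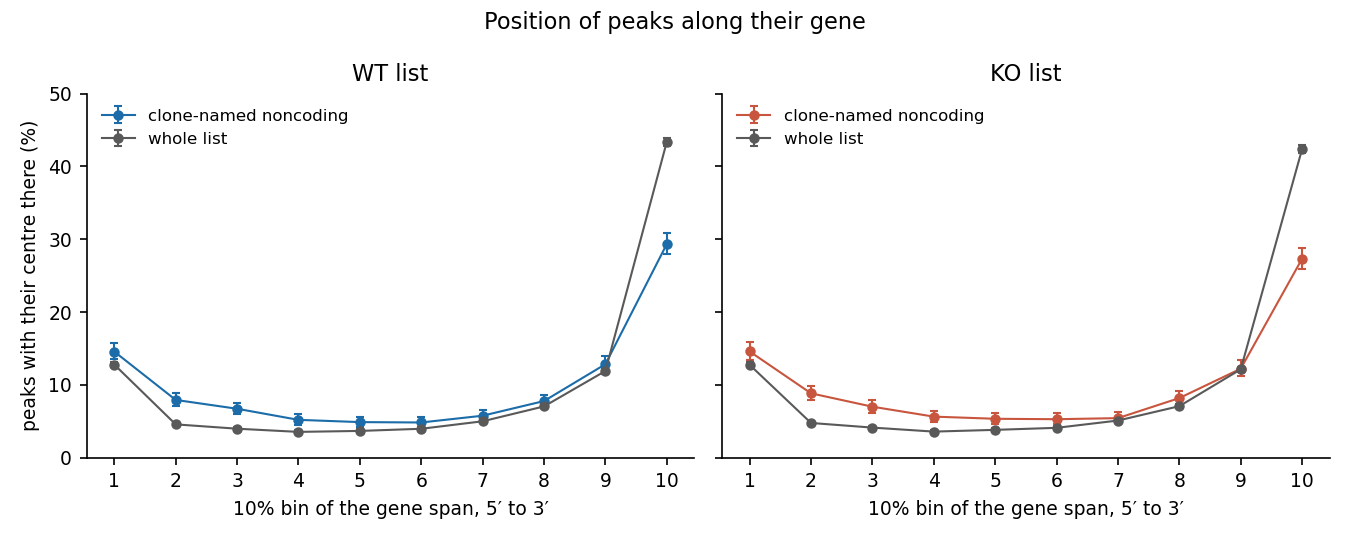
Share of peaks (y axis, percent) with their centre in each 10% of the gene span from the 5′ end to the 3′ end (x axis), among peaks that cover less than 50% of their gene, in the WT list (left) and the KO list (right). Coloured points are clone-named noncoding peaks and grey points the whole list, with Wilson 95% bars; the last 10% holds 29.3% of the WT members and 43.4% of the WT list.

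Many members sat next to other genes. In 17.6% of WT and 18.3% of KO members the peak shared bases with a peak on the opposite strand in the same list, against 9.22% and 8.83% of all peaks. Noncoding-exon peaks of other named genes were near the members, at 17.0% in WT and 15.9% in KO. The libraries mark strand, per the labels' protocols, though how the caller used strand was not given in the sources used here. WT members with an opposite-strand peak lacked a KO partner less often, 23.2% against 39.0% of the rest (-15.8 points, -19 to -12.5). KO members went the same way, 13.4% against 25.1% without a WT partner (-11.8 points, -14.5 to -8.78). At an FDR at or below 1e-05 the difference was -8.43 points (-11.5 to -4.83) in WT and 0.262 points (-1.51 to 2.64) in KO. The same shares over all peaks were not computed. Of the WT member genes, 23.7% started within 1000 bases of the start of a RefSeq gene on the opposite strand. The share was 19.7% of all genes with a WT peak and 20.3% of other named genes with a noncoding-exon peak. Among member genes it was 39.1% for other RIKEN genes, 32.7% for testis-library genes and 19% for Gm genes. Peaks of such divergent genes lacked a KO partner in 29.3% and those of the rest in 38.8%, a difference of 9.55 points (6.52 to 12.5), where over the whole WT list the shares were 19.8% and 22.0%. For testis-library genes it was 37.3% against 54.9% in WT (17.6 points, 9.41 to 25.3), and 20.9% against 21.1% in KO (0.149 points, -7.80 to 7.67). Over all KO members, peaks of divergent genes lacked a WT partner in 19.6% and those of the rest in 24.3% (4.75 points, 1.92 to 7.45). Over the whole KO list the shares were 17.4% and 19.8%. The KO difference was 10.1 points (4.42 to 15.6) for other RIKEN genes and 3.16 points (-0.584 to 6.65) for Gm genes. In WT these were 9.79 points (3.65 to 15.7) and 7.02 points (3.08 to 10.8).

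The X chromosome is silenced in male germ cells during meiosis. Of its 104 WT member peaks 22.1% lacked a KO partner, against 36.6% of 4649 on the autosomes (14.5 points, 5.48 to 21.5). Over peaks of all kinds on the X chromosome the share was 20.5% in WT and 21.3% in KO. In KO it was 25.2% of 111 and 22.9% of 3974 (-2.35 points, -11.3 to 4.93). At an FDR at or below 1e-05 the WT shares were 1 of 37 peaks and 13.4%, and the interval of their difference, -0.541 to 13.6 points, includes 0. Chromosomes 14 and 18 had the highest WT shares, 46.1% (39.4 to 52.9) and 45.0% (37.5 to 52.7). Chromosome 17 had the lowest of the autosomes, 26.0% (21.2 to 31.5). In KO these chromosomes stood at 25.9%, 23.3% and 17.6%, and chromosome 17 was again the lowest of the autosomes.

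Among the member genes, 20 hold microRNA hairpins on their own strand, 33 hairpins in all, and 0 of those hairpins shared a base with a member peak. Hosts are shown here for the peaks near their microRNAs: A330023F24Rik, whose WT peak lies between its hairpins, 6720427I07Rik, host of a let-7 cluster, and Gm2044, host of miR-202, a microRNA of the gonads. They were chosen, like E130102H24Rik below, after the positions and values of their peaks were seen. Mature sequences are from RefSeq, with the seed (bases 2 to 8) in capitals.
miR-29b-3p, in A330023F24Rik: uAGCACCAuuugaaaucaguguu
miR-29c-3p, in A330023F24Rik: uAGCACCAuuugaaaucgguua
let-7a-5p, in 6720427I07Rik: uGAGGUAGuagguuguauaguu
let-7d-5p, in 6720427I07Rik: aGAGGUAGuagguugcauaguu
let-7f-5p, in 6720427I07Rik: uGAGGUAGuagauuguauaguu
miR-202-5p, in Gm2044: uUCCUAUGcauauacuucuuu

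Both miR-29 microRNAs share the seed AGCACCA, and the 3 let-7 microRNAs share GAGGUAG. The WT peak of A330023F24Rik (chromosome 1, 195037185 to 195037454, plus strand) lay 65 bases from the Mir29b-2 hairpin and 93 bases from that of Mir29c, with a fold of 3.07 and a log10 FDR of -4.74. No KO peak overlapped it, and the KO peak of that gene lay elsewhere, with a log10 FDR of -0.367. The peak of 6720427I07Rik, 323 bases from Mirlet7d, was shared, with a WT fold of 2.75. The peak of Gm2044, 596 bases from Mir202 and 473 from Mir7686, was in WT alone, with a fold of 2.43 and a log10 FDR of -17.0, and the gene had no member peak in KO. E130102H24Rik, host of Mir101a, had a shared peak 118 bases from the hairpin, with a WT fold of 3.24.

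The fixed lists gave few members. Of 2 transcripts that overlap ribosomal RNA, Gm26917 and Gm42418, 0 had a peak. Of 6 nuclear copies of mitochondrial genes, 4 had member peaks, 4 in WT and 3 in KO, all on chromosome 1, and 2 of the WT peaks had no partner. Gm10925 had a shared peak with a fold of 10 in WT and 3.96 in KO, and Gm28661 one with 34.5 and 5.56. Gm28438 had a peak in WT alone with a fold of 18.5. Gm28439 had a KO peak with 26.2 that overlapped a WT peak, though no WT peak carries that gene's name. Of 3 microRNA hosts, A330023F24Rik alone had peaks. Of 6 clone-named genes of male meiosis or sperm, 5 had a peak and 0 had a noncoding-exon peak, and RefSeq classes those 5 as protein-coding. Among these, Gm4969, known as Meiosin, a gene of meiotic entry, had a shared peak in its 3′ untranslated region with folds of 2.41 in WT and 2.62 in KO. Gm4969 also had a coding-exon peak in KO alone, with a fold of 1.76 and a log10 FDR of -26.4. 4930447C04Rik, known as Six6os1, a part of the synaptonemal complex, had 2 peaks in each list, all shared. Its peak in the 3′ untranslated region had a fold of 4.5 over 270 bases in WT and 14.7 over 4158 bases in KO. 4933427D14Rik had a shared peak, and 4932438A13Rik had shared peaks and a peak in KO alone. 1700102P08Rik had a peak in WT alone and none in KO.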

How the data were processed

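MeRIP-seq of postnatal day 18 (P18) testis gave 12 libraries in 4 groups of 3 (IP and input of each genotype), grouped by their titles. The submitters' processing notes name fastp, FastQC, HISAT2, HOMER and StringTie, without roles, and the build GRCm38. The peak caller, and whether replicates were pooled, are not given in the sources used here. The authors deposited 1 peak list per genotype. Per the file headers, each peak has a fold enrichment, a linear ratio of IP over input, and log10 values of its p-value and false discovery rate (FDR), handled here as a score because the smallest run off the scale. Per the file headers, each peak also has a span, introns included, listed 1 base too long by the authors and corrected here.

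A peak was shared when at least 1 base overlapped any peak of the other list on the same strand (bedtools 2.31.1). Other work used Python 3.11.15, pandas 2.3.3, NumPy 2.4.6 and SciPy 1.17.1. Shares carry Wilson 95% intervals and differences Newcombe 95% intervals. Both cover counting error only and treat peaks as independent, although peaks of 1 gene are not. Medians of pair ratios carry 95% intervals from order statistics. The overlap and interval code was tested on simulated lists. No values per library were used, so sequencing depth is unknown, and neither a replicate error nor a test between genotypes could be had.

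The genes named are the 5 with the highest fold among shared WT peaks, the 5 with the highest fold in each list alone at an FDR at or below 1e-05, the 5 with the most peaks, the 5 pairs at each end of the KO over WT fold with both FDRs at or below 1e-05, and 4 fixed lists. Others were named after their values were seen, and the text says so. The members, lists and rules were chosen with earlier results of these data known. RefSeq (GRCm38.p6) gave gene classes, gene starts and sequences. Alternatives were FDR limits, name classes, overlap rules, strand, opposite-strand peaks, equal list lengths and merged peaks.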

Additional observations from a re-analysis of the deposited data

How the results depend on the processing

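No paired analysis was possible because the lists hold no values per library; leaving out replicates was not run for the same reason. Of 58 recomputed values, 34 stayed within the interval or within 1.5 times the count reported, and each difference between shares kept its sign. The WT minus KO difference in members without a partner was 17.1 points with both lists held to an FDR of 0.05, 19.6 at 1e-05, 15.3 for Rik names alone, 6.71 with 50% overlap of both peaks and 10.1 with lists of equal length. The KO minus WT difference in the members' share of genotype-only peaks was -11.9, -15.1, -3.24 and -3.74 points in the first 4 of these settings, and -5.86 for Gm names alone. Testis-library RIKEN peaks exceeded other clone names in WT by 14.6 points, and by 19.1, 30.3 and 21.9 in the first 3 settings. Genes in 1 list alone fell to 398 (WT) and 134 (KO) at 1e-05, and at any FDR 227 and 85 had Rik names. The median log2 fold ratio of pairs was -0.048 at 1e-05 and 0.077 for Rik names alone, and its sign differed between settings. The median WT fold was 7.87 and 8.64 under the FDR limits and 7.41 for Gm names, and the KO median 8.80 and 8.76. The causes were not tested. Merging overlapping peaks of a list, and the comparison of testis-library with other names, were chosen after seeing the data; merging moved no value past its interval. Without depth, a missing peak is not shown to be absent.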
